A study of Bos taurus with 7 samples.

Results

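The 35k milk fraction, a single small RNA library titled MP - 35k, was set against the 3 libraries of milk titled Milk - 1, Milk - 2 and Milk - 3. Both came from commercial cow's milk (Bos taurus) of 1 brand, named Lactantia purefilter in the labels, and no animal, carton, age or treatment is given for any group. What MP and k stand for is not written in the labels, so 35k is used here as a name only. A sequence entered the comparison when it had at least 10 reads in the 35k library or in all 3 milk libraries, and 17614 of the 229971 distinct sequences of the series did so. The reads measured were those of 8 to 15 nt, and levels are RPM, a library's reads of a sequence relative to its total within this size window. With a single 35k library there is no replicate of the fraction, so each of its values is given beside the 3 milk values, and an exact permutation test of 1 against 3 libraries cannot go below 0.25 (one-sided).

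Small RNA in milk lies partly inside vesicles and protein complexes and partly in cell debris, and ribosomal RNA (rRNA) and transfer RNA (tRNA) are its usual main sources of fragments. The 5.8S rRNA pairs with 28S rRNA in the large ribosomal subunit, 18S rRNA is the core of the small subunit, and 5S rRNA belongs to the large one. A tRNA carries 1 kind of amino acid to the ribosome, and enzymes that cut tRNAs leave stable 5' and 3' pieces. A fragment of 8 to 15 nt is shorter than a microRNA, so a single such sequence can fit several RNAs.

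The sequences below carry the comparison and are read from the deposited files. Their RNA names come from general knowledge of vertebrate RNAs and were not matched to a bovine genome. Capitals mark the run shared by the forms of 1 RNA that were compared, and a sequence with no other form compared is in lower case.
5.8S rRNA, 12 nt: gACTCTTAGCGG
5.8S rRNA, 13 nt: cgACTCTTAGCGG
5.8S rRNA, 14 nt: acgACTCTTAGCGG
28S rRNA, leading fragment, 14 nt: cAGGACGGTGGCCA
28S rRNA, leading fragment, 15 nt: gcAGGACGGTGGCCA
18S rRNA, 14 nt: gCAGCTAGGAATAA
18S rRNA, 15 nt: cgCAGCTAGGAATAA
lysine tRNA, 12 nt: aCGTTGGGCGCC
lysine tRNA, 13 nt: aCGTTGGGCGCCa
cysteine tRNA, 12 nt: tCAAGAGGTCCC
cysteine tRNA, 11 nt: CAAGAGGTCCC
5S rRNA, 12 nt: GGTGCTGTAGGC
5S rRNA, 13 nt: GGTGCTGTAGGCt
28S rRNA, second fragment, 14 nt: GGGAACGTGAGCTg
28S rRNA, second fragment, 15 nt: GGGAACGTGAGCTgg
glycine tRNA, 15 nt: gcattggtggttcag
serine tRNA, second fragment, 11 nt: gacgaggtggc
tryptophan tRNA, 14 nt: cgtcggggtcacca
The leading rRNA and tRNA forms are shown because they hold most reads of both arms and give the end-form ratios below, and the second 28S, second serine and tryptophan fragments because, among sequences given an RNA name, they had the lowest ratios of 35k to the lowest milk library. Sequences to which no animal RNA could be given are called unassigned and are described by length, share of G and C, and value.

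The 35k library held 2560280 reads and the milk libraries 1658606 to 4572650. The 35k library listed 57968 distinct sequences, against 47797, 52068 and 48966 in milk 1, 2 and 3. The milk libraries shared rare sequences in a directed way. Of the 4453 sequences with at least 10 reads in milk 3 that occurred in no library beyond milk 3 and milk 2, 98.2% were also in milk 2, at a median of 5 reads. Of the 4008 such sequences of milk 2 in no library beyond milk 2 and milk 1, 87.4% were also in milk 1, at a median of 2 reads, whereas 8.82% of the 1894 of milk 1 occurred in milk 2. The corresponding shares of the 35k library's sequences were 4.03%, 7.18% and 8.23% in milk 1, 2 and 3. The cause was not tested, and the 3 milk libraries are thus not fully independent of each other. Nothing in the labels says that they came from separate cows or cartons, so each p-value measures the spread among these libraries alone, and that spread may be technical.

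The number of reads per sequence differed between libraries. Of the sequences with 10 or more reads, 17140 were in the 35k library, against 8109, 11390 and 11498 in milk 1, 2 and 3. After all libraries were thinned to 1658606 reads, there were 13982 in the 35k library, against 8109, 8521 and 7345 in the milk libraries. Smoothed over 5 read values, the count of 35k sequences had a dip at 8 reads and a second peak at 18 reads. Of its sequences with 10 or more reads, 84.6% held 10 to 40. Milk 2 and milk 3 had such second peaks at 26 and 28 reads, and milk 1 had none. The 12k fraction had one too, at 10 reads with a dip at 6, and 88.8% of its sequences with 10 or more reads held 10 to 40. The minimum of 10 reads therefore lies below this peak in the 35k library, and results are also given for a minimum of 100 reads, which was chosen after the data were seen.

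**Figure D1:**
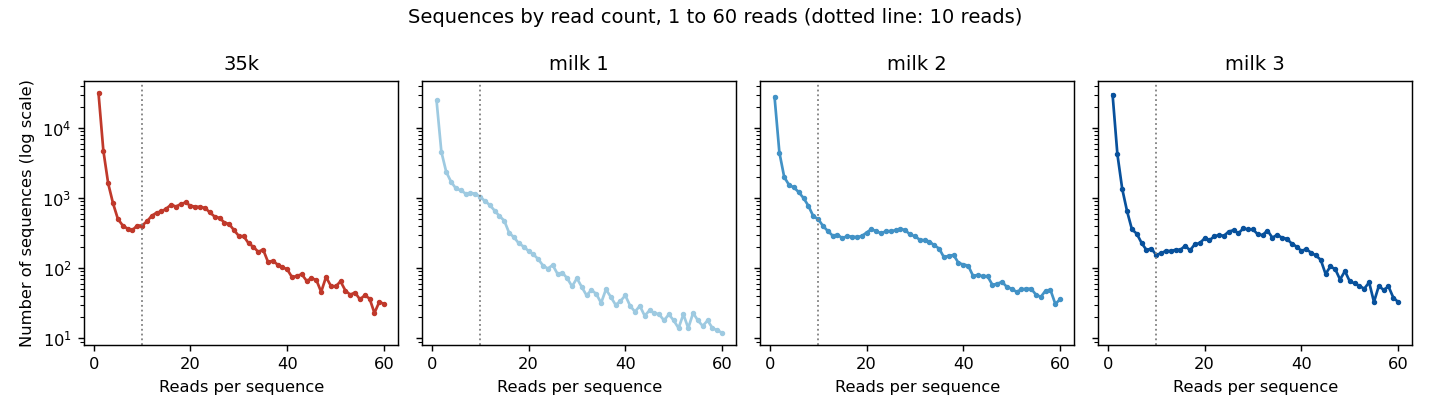
Number of distinct sequences (log scale) against reads per sequence from 1 to 60, for the 35k library and the 3 milk libraries, with a dotted line at 10 reads. The counts are drawn without smoothing. The 35k curve dips at 8 reads and peaks near 18, milk 2 and milk 3 peak near 26 and 28, and milk 1 falls without a second peak.

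The first question of the comparison was which sequences the fraction and milk held in common. Of the 17614 sequences, 1778 passed the minimum in both arms, 15362 passed it through 35k alone and 474 through milk alone. The 1778 shared ones held 80.8% of the 35k reads, against 88.2%, 88.4% and 91.6% of the reads of milk 1, 2 and 3. The 15362 sequences that passed through 35k alone held 16.7% of the 35k reads, against 1.66%, 1.88% and 1.22% of the milk reads. Of these, 9075 had no read in any milk library, and their arm had a median of 21 reads in 35k. The 474 that passed through milk alone held 0.0414% of the 35k reads, against 0.677%, 0.715% and 0.625% of the milk reads.

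These arms differ by construction. A sequence that passed through milk alone had under 10 reads in 35k. One that passed through 35k alone had under 10 reads in at least 1 milk library, but not always in all 3. Of the 15362 that passed through 35k alone, 1269 lay within the milk range and 10 below it. The milk arm asked for 10 reads in each of 3 libraries and the 35k arm in 1 library, so the arm sizes are not like for like. Over all 17614 sequences, 13256 (75.3%) stood at least 2 times above the highest milk library and 506 (2.87%) at or below 1/2 of the lowest. The 506 became 2179 without milk 1, 762 without milk 2 and 1058 without milk 3. The test over all sequences called 12359 (70.2%), 12118 (68.8%) of them higher in 35k and 241 (1.37%) lower. Of the sequences tested, 87.2% passed the minimum through 35k alone, so nothing about single sequences is read from these counts. The p-values were adjusted over all sequences together, so the many calls in this arm make the adjusted p of any 1 sequence smaller. A call of a single sequence below therefore rests partly on this choice. Only 355 (2.02%) were called with DESeq2, 206 higher and 149 lower. Without milk 2 the count was 137 and without milk 3 it was 192. Within the 1778 shared sequences, 380 (21.4%) lay above all 3 milk libraries, 884 within their range and 514 (28.9%) below it. In this shared arm 137 (7.71%) were at least 2 times above the highest milk library and 99 (5.57%) at or below 1/2 of the lowest.

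**Figure D2:**
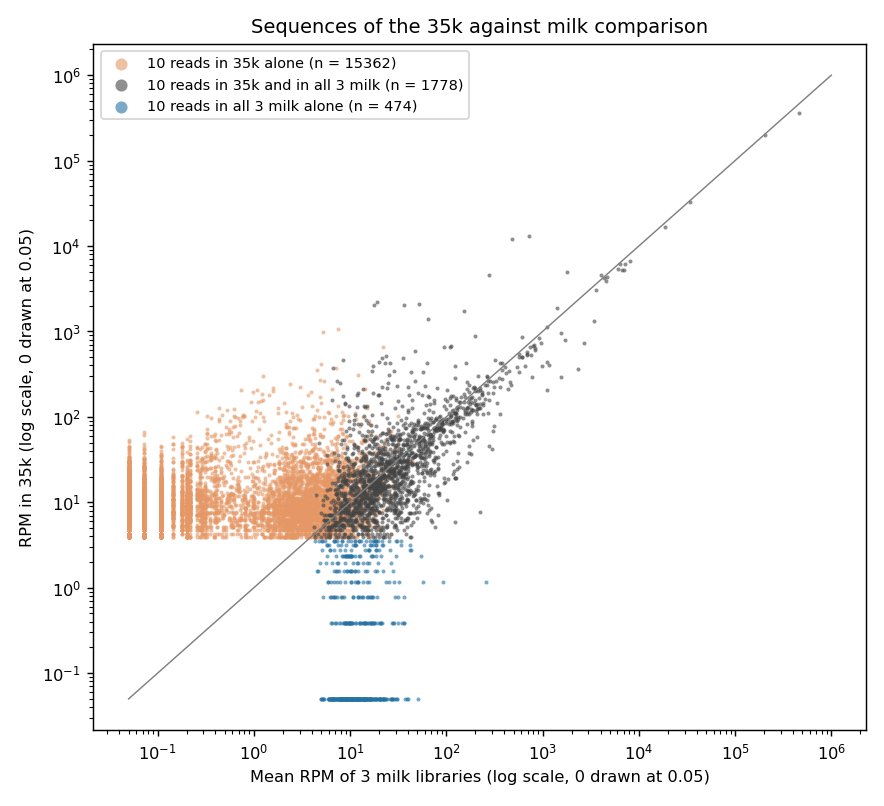
RPM of each sequence in the 35k library against its mean RPM in the 3 milk libraries (log scales, a value of 0 drawn at 0.05), coloured by the arm through which it passed the minimum, with the line of equal values. Most of the 1778 shared sequences lie along the line, and most of the 15362 that passed through 35k alone lie above it, with 9075 at 0 in milk.

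With a minimum of 100 reads, 875 sequences remained, 280 of them passing in both arms, 565 through 35k alone and 30 through milk alone. Of these, 371 (42.4%) stood at least 2 times above the highest milk library and 18 (2.06%) at or below 1/2 of the lowest. Since 565 of the 875 passed through 35k alone and the 371 were picked by their 35k values, their read shares are a description only. The 371 higher sequences held 8.93% of the 35k reads, against 0.695%, 0.718% and 0.669% of the milk reads, and 7 of them had no read in milk. None of the 371 belonged to the rRNA and tRNA families named below, which held 124 of the 875. A sequence shorter than the run of bases that defines a family could not belong to one, whatever its source. Some fragments given an rRNA or tRNA name also lie outside these families. The absence is therefore partly fixed by the definition and does not show that the 371 are not rRNA or tRNA. In the 12k fraction 232 of the 371 were also at least 2 times above the highest milk library, 144 were so in 70k and 104 in 100k. The number among all 875 was not counted for these fractions, so the overlaps stand without a background. The 35k library had the highest value of the 4 fractions for 332 of them. The 18 lower sequences held 0.0821% of the 35k reads, against 0.290%, 0.596% and 0.512% of the milk reads.

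To follow RNAs rather than single sequences, reads were summed over 30 families, each made of the sequences that share a run of 11 bases with a leading sequence. Together they held 71.7% of the 35k reads, against 80.7%, 81.7% and 86.2% of the milk reads. These are shares of the reads in a library, so a lower amount of 1 RNA and a higher amount of the others cannot be told apart. The 4 rRNA families held 66.4% of the 35k reads, against 76.9%, 77.6% and 82.2% in milk. The 8 tRNA families held 2.09%, against 1.55%, 2.54% and 2.38%. The 10 unassigned families held 2.48%, against 0.479%, 0.798% and 0.755%. The other 8 families were forms of 5.8S rRNA with 1 differing base. The test called 9 of the 30 families (30%), 8 higher in 35k (26.7%), all of them unassigned, and 1 lower (3.33%), the 5.8S family. The families were chosen on the mean of both arms, and 23 of the 30, with 2 of the 9 called, would also have been chosen from milk alone. These 2 are the 5.8S family and unassigned family A. The other 7 families called higher were among the 30 through their 35k values, so their number follows from the choice and is given as a description. Their lack of an RNA name is likewise a description, since names were given from general knowledge without a sequence table.

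**Figure D3:**
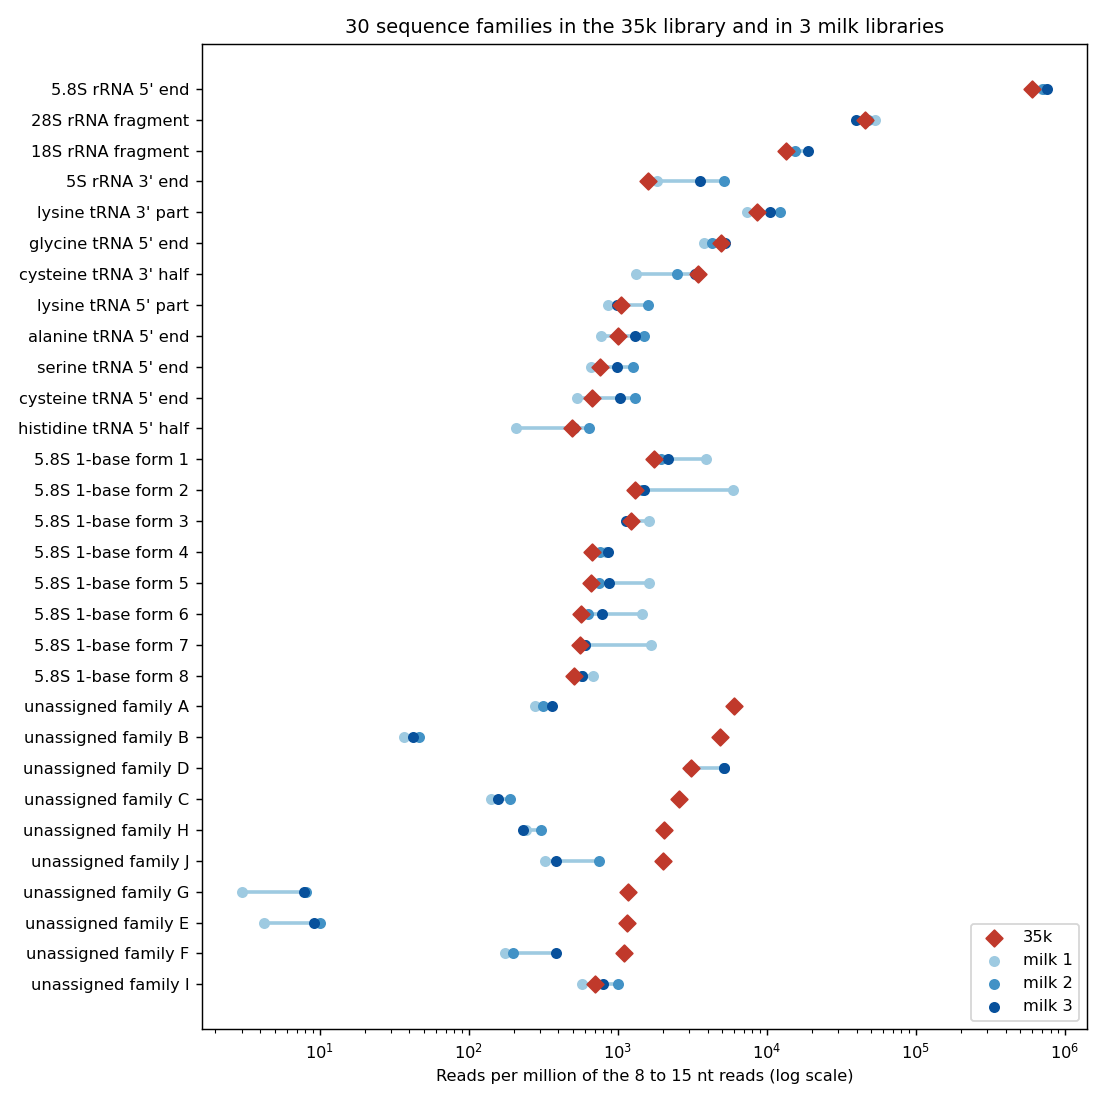
RPM (log scale) of the 30 families in the 35k library (diamonds) and in the 3 milk libraries (circles, joined by a line over their range), ordered as rRNA, tRNA, 5.8S forms with 1 differing base, and unassigned. The rRNA and tRNA diamonds lie in or next to the milk range, and 8 of the 10 unassigned families lie well to the right of all milk values.

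The 5.8S rRNA 5' end was the largest family in all 4 libraries. It held 603299 RPM in 35k, against 700623, 707851 and 760045 RPM in milk 1, 2 and 3. The 35k value lay below all 3 milk values, with a log2 fold change of -0.26 (SE 0.09, adjusted p = 0.0163, edgeR). The call was lost with TMM scaling (log2 fold change -0.10, adjusted p = 0.993). It was also lost, at log2 fold changes of -0.28 to -0.30, with DESeq2 (adjusted p = 0.414), without milk 1 (adjusted p = 0.313) and without milk 2 (adjusted p = 0.270). In the other fractions the family held 722475 RPM in 12k, 657705 in 70k and 771312 in 100k.

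Within this family 35.7% of the 35k reads were the 12-nt form (95% Wilson interval 35.6% to 35.7%), against 37.7%, 46.5% and 53.7% of the milk reads. The 13-nt form, which starts with the first base of the mature RNA, came to 20.1% of reads in 35k (20.0% to 20.1%), against 26.03%, 19.0% and 16.7%. The 13-nt form thus lay within the milk range and the 12-nt form below it, and neither was called (adjusted p = 0.939 for 13 nt and 0.271 for 12 nt, edgeR). Under 3 alternatives the 12-nt form was called lower. These were TMM scaling (log2 fold change -1.61), a minimum of 1 read (-0.37) and leaving out milk 1 (-0.49). There were 0.563 reads of 13 nt for each read of 12 nt in 35k, against 0.690, 0.408 and 0.310 in milk, and 0.424, 2.00 and 2.85 in 12k, 70k and 100k. Of the family's reads in 35k, 99.8% ended at the same last base, as did 99.8% to 99.9% in milk, so the forms differ at their 5' ends.

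The families with 1 base changed in the 5.8S run were lower in 35k than in each milk library in 7 of 8 cases, and none was called. Together they held 0.722% of the 35k reads, against 1.77%, 0.794% and 0.851% in milk 1, 2 and 3. Per 100 reads of the 5.8S family they came to 1.20 in 35k, against 2.53, 1.12 and 1.12 in milk, which puts 35k within the milk range. Milk 1 stood apart from the other milk libraries in this class. A set of 3 single forms with 1 differing base were called lower, and of the 4 libraries compared milk 1 held most of each. By the shared run, the 12-nt form and the first of the 2 13-nt forms below were counted in the 5.8S family. The shares of the 8 families therefore leave them out, and the values per 100 reads count them with the 5.8S family. The most abundant, of 12 nt, had 1328 RPM in 35k, against 6415, 1755 and 2087 RPM in milk (log2 fold change -1.36, SE 0.53, adjusted p = 0.0166, edgeR), and its call was lost without milk 1 (adjusted p = 0.112), without milk 2 (adjusted p = 0.110) and without milk 3 (adjusted p = 0.107). The other 2, of 13 nt, had 742 RPM against 6773, 669 and 584 RPM, and 390 RPM against 2296, 355 and 294 RPM, and both turned to a higher value in 35k without milk 1. Their calls were also lost without milk 2 (adjusted p = 0.110 for both) and without milk 3 (adjusted p = 0.107 for both). With DESeq2, with limma, with minimums of 50 and 100 reads and after thinning, all 3 of these single forms lost their call.

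The leading 28S rRNA fragment did not stand out. Its family held 45548 RPM in 35k, against 53082, 47650 and 39525 RPM in milk, and the value lay within the milk range (log2 fold change -0.04, SE 0.37, adjusted p = 0.919, edgeR). Its 14-nt form had 32961 RPM in 35k, against 37937, 34844 and 28621 RPM in milk. For each 14-nt read there were 0.187 reads of 15 nt in 35k, against 0.207, 0.175 and 0.186.

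The 18S rRNA fragment lay just below milk. Its family held 13374 RPM in 35k, against 13437, 15331 and 18853 RPM in milk (adjusted p = 0.879, edgeR). In 35k 99.99% of its reads ended at the same base. Its 14-nt form had 1.76 reads for each of its 13-nt form in 35k, against 1.68, 1.59 and 1.72, a little above the milk range, while the ratio of 15 nt to 14 nt, at 0.725, lay within it. In 70k and 100k the family stood at 2900 and 1352 RPM.

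The 5S rRNA 3' end was the rRNA family with the lowest ratio to milk. It held 1585 RPM in 35k, against 1820, 5151 and 3547 RPM, a value close to milk 1 and below the other two libraries (log2 fold change -1.15, SE 0.71, adjusted p = 0.309, edgeR). Its 12-nt sequence had 408 RPM, against 519, 1763 and 1176 RPM, and its 13-nt sequence had 441 RPM, against 510, 1623 and 1186 RPM. Both were called lower as single sequences (adjusted p = 0.0247 and 0.0450, edgeR). Both calls were lost with DESeq2 (adjusted p = 0.0809 and 0.108), without milk 2 (adjusted p = 0.285 and 0.342) and without milk 3 (adjusted p = 0.138 and 0.198). They were also lost with limma, with minimums of 1, 50 and 100 reads, with 40 summed reads, with all 7 libraries and after thinning.

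The second 28S rRNA fragment, outside the 30 families, was low in all fractions. Its 15-nt form had 3 reads in 35k (1.17 RPM), against 247, 1112 and 1168 reads in milk (149, 362 and 255 RPM). Its 14-nt form had 20 reads (7.81 RPM), against 240, 914 and 1036 reads (145, 298 and 227 RPM). The 13-nt form had 48 reads, against 100, 608 and 242 reads. The 15-nt form passed the minimum through milk alone, so its low value in 35k was fixed by that choice and no test of it is given. The 14-nt form, which passed in both arms, fell with a log2 fold change of -4.83 (SE 1.05, adjusted p = 4.99e-05, edgeR). Its call was lost without milk 2 (adjusted p = 0.0733) and without milk 3 (adjusted p = 0.0516). The 12k fraction held 9.09 and 1.30 RPM of the 15-nt and 14-nt forms, the 70k fraction 6.05 and 1.65 RPM, and the 100k fraction 2.58 and 3.09 RPM.

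The tRNA families kept close to milk. None of the 8 was called, 7 lay within the milk range and 1, a cysteine tRNA, lay above it. The lysine tRNA family, from the part next to the 3' end, was the largest, with 8597 RPM in 35k, against 7337, 12265 and 10433 RPM in milk. The 35k value lay within the milk range, whereas the family held 3534 RPM in 12k, 457 RPM in 70k and 170 RPM in 100k, all below that range. The glycine tRNA 5' family held 4918 RPM in 35k, against 3798, 4296 and 5206 RPM. The cysteine tRNA 3' family held 3441 RPM, against 1334, 2498 and 3313 RPM, which is above milk 3 by less than the spread between milk libraries (log2 fold change 0.53, SE 0.64, adjusted p = 0.724, edgeR).

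The other 5 tRNA families were smaller, and 35k lay within the milk range in each. The lysine tRNA 5' family held 1049 RPM in 35k, against 861, 1586 and 990 RPM. The alanine tRNA family held 998 RPM, against 772, 1494 and 1297 RPM, and the serine tRNA family 757 RPM, against 666, 1271 and 984 RPM. The cysteine tRNA 5' family held 668 RPM, against 534, 1312 and 1029 RPM, and the histidine tRNA family 495 RPM, against 207, 643 and 507 RPM. In each of these 5 families the lowest milk value was that of milk 1 and the highest that of milk 2. In 70k and 100k these 5 families held 3.09 to 180 RPM.

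End forms of the tRNA fragments were close as well. The lysine fragment had 9.54 reads of 12 nt for each of 11 nt in 35k, against 9.26, 8.59 and 8.16 in milk, just above the milk range. The same ratio of the cysteine fragment was 2.22 in 35k, against 2.48, 2.32 and 2.22, and lay at the lower edge of milk. Fragments of glycine tRNA had both ends fixed, with 97.5% of the family's 35k reads sharing the 3' end of its leading sequence and 97.5% sharing the 5' end.

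A second serine tRNA fragment and a tryptophan tRNA 3' end were low in the fraction. The 11-nt serine fragment had 359 RPM in 35k, against 1166, 2913 and 2932 RPM in milk, and 432, 35.2 and 22.7 RPM in 12k, 70k and 100k. It fell with a log2 fold change of -2.70 (SE 0.62, adjusted p = 1.12e-04, edgeR), and the call was lost with limma (adjusted p = 0.124), without milk 2 (adjusted p = 0.110) and without milk 3 (adjusted p = 0.107). The tryptophan fragment had 38.3 RPM, against 108, 147 and 138 RPM, and was not called (adjusted p = 0.0831, edgeR). Some alternatives did call it lower, so its call depended on the setting. They were TMM scaling (log2 fold change -3.01), limma (-1.74) and leaving out milk 1 (-1.90). It was also called with the most abundant family left out of the library sizes (-2.31), and with DESeq2 at a minimum of 100 reads (-2.54).

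Unassigned sequences led those that were higher in 35k. The 2 most abundant were of 10 nt, with 80% and 70% G and C. The first had 13219 RPM in 35k (1.32% of reads, 95% Wilson interval 1.31% to 1.34%), against 966, 538 and 677 RPM in milk, and 13762, 2358 and 3006 RPM in 12k, 70k and 100k. The second had 12202 RPM in 35k, against 627, 353 and 455 RPM in milk, and 12455, 1477 and 2036 RPM in the other fractions. They ranked 5 and 6 in 35k by reads, while the other 8 of its 10 most abundant sequences were also in the milk top 10. The first rose 13.7 times above the highest milk library (log2 fold change 4.18, SE 0.43, adjusted p = 6.23e-19, edgeR) and the second 19.5 times (log2 fold change 4.67, SE 0.44, adjusted p = 1.87e-22, edgeR), and the 12k values were close to those of 35k.

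Grouping sequences by their last 8 bases put length variants of unassigned sequences together. A group also holds sequences that differ in the bases before this end, so its sum is not that of 1 sequence. The group led by the first 10-nt sequence held 17121 RPM in 35k, against 1183, 622 and 793 RPM in milk, over 34 forms in 35k. An 11-nt member of it, with 82% G and C, had 2095 RPM in 35k, against 82.0, 27.7 and 47.0 RPM in milk. The second group held 12889 RPM, against 675, 409 and 498 RPM, and 94.7% of it was its leading sequence. The third, led by an 8-nt sequence, held 5992 RPM in 35k, against 1722, 2090 and 2155 RPM in milk. Its leading sequence alone had 4980 RPM, against 1503, 1951 and 1975 RPM (log2 fold change 1.46, SE 0.46, adjusted p = 0.00454, edgeR), and its call was lost with TMM scaling (adjusted p = 0.773), with DESeq2 (adjusted p = 0.377), without milk 2 (adjusted p = 0.110) and without milk 3 (adjusted p = 0.107). Another group, led by another 10-nt sequence, was spread over 84 forms and held 5477 RPM in 35k, against 761, 689 and 735 RPM in milk, and 1219, 779 and 362 RPM in 12k, 70k and 100k.

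**Figure D4:**
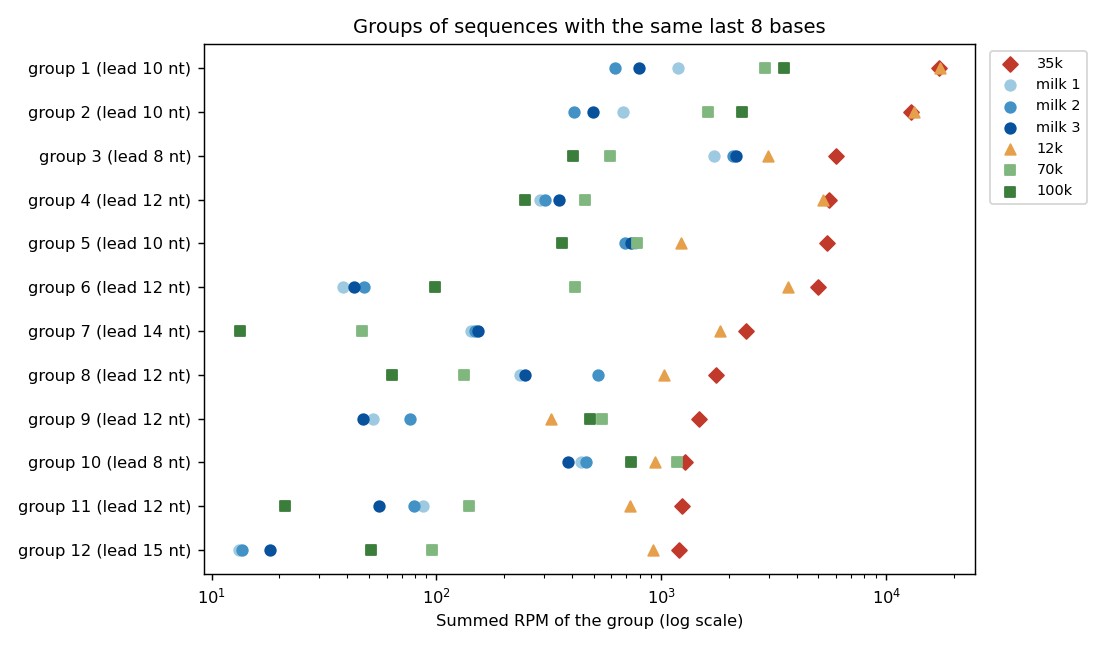
Summed RPM (log scale) of the 12 unassigned groups of sequences with the same last 8 bases that were most abundant in 35k among those at least 2 times above milk, in the 35k library, the 3 milk libraries and the other fractions. The 35k diamonds lie to the right of all milk circles in each group, and the 12k triangles are close to 35k in groups 1, 2 and 4.

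The 8 unassigned families called higher ranged widely in size. Family A held 6067 RPM in 35k, against 279, 315 and 361 RPM in milk (log2 fold change 4.25, SE 0.57, adjusted p = 3.94e-09, edgeR), and 5522 RPM in 12k. Family B held 4862 RPM in 35k, against 36.8, 46.2 and 41.99 RPM in milk, with 3571 RPM in 12k. It and families C, E, F, G, H and J would not have been chosen from milk alone, so their values are given without a test. All of its reads in 35k ended at the same base. Family C held 2556 RPM in 35k, against 141, 188 and 156 RPM in milk, and 2022 RPM in 12k, but 56.7 and 15.99 RPM in 70k and 100k. The C family thus lay above milk in 12k and 35k and below it in 70k and 100k.

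Families E and G were close to absence in milk. Family E held 1148 RPM in 35k, against 4.22, 10.1 and 9.19 RPM, and family G held 1166 RPM, against 3.01, 8.14 and 7.87 RPM. In 12k they held 878 and 581 RPM. Family H held 2044 RPM in 35k, against 242, 304 and 233 RPM in milk, and in 12k, at 269 RPM, it lay within the milk range. Families F and J were higher by less, at 1107 RPM against 176, 197 and 385 RPM, and at 2001 RPM against 326, 751 and 386 RPM. In 12k, 70k and 100k family F held 808, 458 and 1417 RPM, so it was highest in 100k. Family J held 1156, 196 and 93.4 RPM in these fractions. The other 2 unassigned families, D and I, lay within the milk range, at 3116 RPM against 3003, 5154 and 5180 RPM, and at 708 RPM against 579, 1006 and 793 RPM.

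The 12 sequences with at least 100 RPM in 35k and the highest ratios to milk were all unassigned, of 12 to 15 nt, and all of them passed the minimum through 35k alone. The highest ratio was that of a 14-nt sequence with 290 reads in 35k, against 0, 1 and 2 reads in milk. Among the more abundant of the 12, a 14-nt member of family G had 981 RPM in 35k, against 2.41, 6.84 and 6.56 RPM in milk and 497 RPM in 12k, and a 15-nt member of family E had 1080 RPM, against 4.22, 9.44 and 8.75 RPM in milk and 823 RPM in 12k. A set of 2 of the 12 had under 1 RPM in 12k. They were a 14-nt sequence with 100.8 RPM in 35k, against 0.603, 0.651 and 0.656 RPM in milk, and 0.866 RPM in 12k, and a 13-nt sequence with 121 RPM in 35k, against 0.603, 0.977 and 0 RPM in milk, and 0.433 RPM in 12k. The 13-nt sequence had the highest ratio of 35k to all other libraries, whose highest value was 3.30 RPM in 70k.

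How many of the sequences that were high in 35k were also high in 12k depended on the read minimum. Of the 13256 sequences at least 2 times above milk at the minimum of 10 reads, 2226 were so in 12k too, and with 50 reads it was 484 of 1041. At these minimums the number so in 12k over all sequences was not counted. Of the 309 sequences with at least 100 RPM in 35k, 131 were at least 2 times above the highest milk library, and 93 of these were so in 12k too. Over all 309, the number so in 12k was also 93. A smaller set of 65 was at least 2 times above all 6 other libraries, and 27 were at least 4 times above. None of these counts was tested, since each fraction has 1 library.

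Other short unassigned sequences were lower in 35k. A 10-nt sequence of 10% G and C had 42.2 RPM in 35k, against 226, 406 and 272 RPM in milk (log2 fold change -2.84, SE 0.86, adjusted p = 0.00342, edgeR), and its call was lost without milk 2 (adjusted p = 0.110) and without milk 3 (adjusted p = 0.107). A 9-nt sequence of 22.2% G and C had 293 RPM, against 3857, 518 and 318 RPM, and its call (adjusted p = 7.55e-04, edgeR) was lost without milk 1 (adjusted p = 0.280), without milk 2 (adjusted p = 0.110) and without milk 3 (adjusted p = 0.0701). A 10-nt sequence of 60% G and C had 291 RPM, against 523, 1071 and 722 RPM, and its adjusted p of 0.0460 (edgeR) became 0.284 without milk 2 and 0.168 without milk 3. The call of the first 10-nt sequence was also lost with a minimum of 1 read. Those of the 9-nt sequence and of the 10-nt sequence of 60% G and C were also lost with DESeq2, with limma, with minimums of 50 and 100 reads and after thinning. The latter call was lost too with a minimum of 1 read, with 40 summed reads and with all 7 libraries. The remaining low ones had 46.1 to 214 RPM in 35k.

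The make-up of all reads differed in length. Reads of 10 nt made up 5.57% in 35k, against 2.60%, 2.53% and 1.95% in milk, and the share stayed above milk without the 5.8S family, at 14.03% against 8.69%, 8.65% and 8.11%. Among distinct sequences, 10 nt made up 10.6% in 35k, against 11.2%, 11.4% and 11.03%, so the difference was one of reads. The 2 leading 10-nt sequences alone held 1.32% and 1.22% of the 35k reads, against at most 0.0966% and 0.0627% in milk. In 12k, 70k and 100k reads of 10 nt made up 4.58%, 4.23% and 3.14%, also above milk. Outside the 5.8S family these fractions had 16.5%, 12.4% and 13.7%, so the higher 10-nt share was not particular to 35k. Reads of 12 nt made up 42.1% in 35k, against 43.2%, 51.8% and 58.3%. Reads of 13 nt, at 27.1%, lay within the milk range of 22.2% to 32.8%. Reads of 8, 11, 14 and 15 nt were above all 3 milk libraries in 35k, and also in 70k. At 15 nt they made up 6.35% in 35k and 5.41% in 70k, against 4.78%, 4.85% and 4.09%. Outside the 5.8S family, the 35k shares of 8 nt (5.21%, against 5.86%, 5.56% and 5.66%) and 14 nt (20.8%, against 23.6%, 23.4% and 23.6%) lay below all 3 milk libraries. The 11-nt and 15-nt shares stayed above them, the 15-nt share at 14.4973%, against a highest milk value of 14.4959%.

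**Figure D5:**
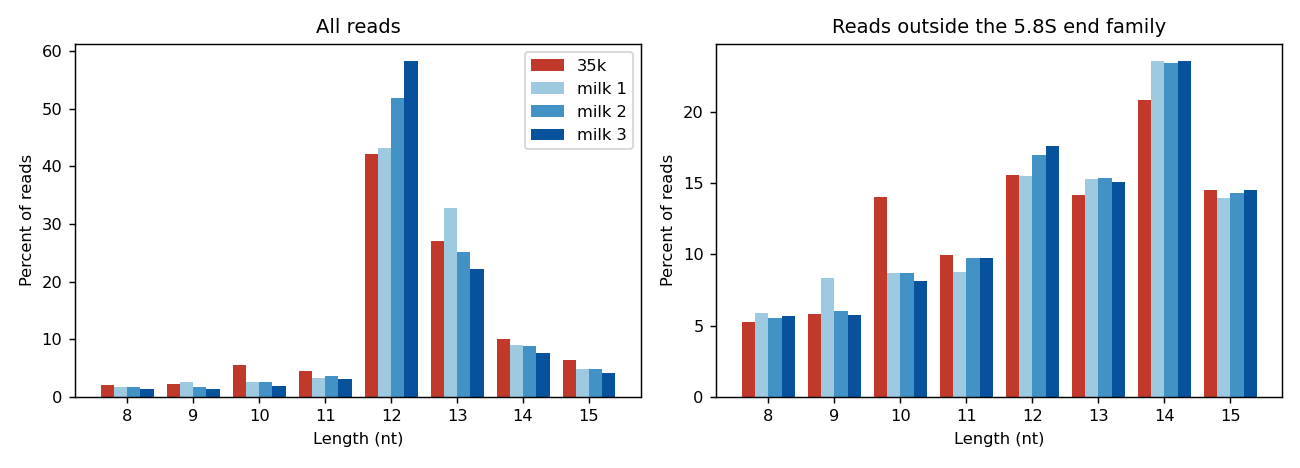
Percent of reads at each length from 8 to 15 nt in the 35k library and in milk 1, 2 and 3, for all reads (left) and for the reads outside the 5.8S family (right). The 35k bar at 10 nt stands above all milk bars in both panels, at 5.57% and 14.03%.

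Reads that started with A made up 11.5% in 35k, against 8.39%, 9.06% and 7.96% in milk, and among distinct sequences 23.6%, against 19.8%, 20.1% and 19.8%. In 12k, 70k and 100k they made up 8.62%, 10.4% and 16.4% of reads, and 23.3%, 23.2% and 27.7% of distinct sequences. The share of G and C was 60.8% of bases in 35k, against 59.4%, 60.1% and 59.6%. It was 60.2%, 61.6% and 60.3% in 12k, 70k and 100k, also above milk. Reads ending in G, the last base of the 5.8S forms, made up 74.2% in 35k, against 77.7%, 77.8% and 82.0%, whereas outside the 5.8S family they made up 35.5% in 35k, against 26.3%, 24.7% and 25.9%. Outside that family they made up 37.6%, 25.8% and 32.5% in 12k, 70k and 100k.

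Reads were spread over more sequences in 35k than in milk. The 10 most abundant sequences of each library held 65.7% of the reads in 35k, against 73.4%, 75.0% and 79.6% in milk, and the top 100 held 74.8%, against 81.7%, 82.1% and 86.5%. In 70k they held 71.7% and 77.8%, also below milk. The effective number of sequences, which is the exponential of the entropy of the read shares, was 88.1 in 35k, against 41.3, 34.7 and 20.3. Without the 5.8S family it was 3043, against 2314, 2183 and 1476. In 12k, 70k and 100k the number was 29.2, 61.1 and 37.9, and 1747, 3450 and 5546 without that family. Outside the 5.8S family, 70k and 100k thus lay above 35k. Of the 35k sequences with 10 or more reads, 40.4% occurred in no other library, against 21.3%, 4.45% and 0.696% for milk 1, 2 and 3 and 32.7% for 12k. The milk values include the directed sharing among milk libraries described above. Of those with at least 100 reads in 35k, 91.1%, 95.7% and 94.3% also had a read in milk 1, 2 and 3.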

How the data were processed

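Small RNA libraries of commercial cow's milk and of 4 milk fractions were made from total RNA extracted with Trizol LS and a DNase step on a column, per the labels' protocols, with inserts of about 8 to 35 nt sequenced for 51 cycles. The deposited files give, per the file headers, the sequences in the 8 to 15 nt window with counts of reads, and RPM values that the authors scaled to this window. The deposited RPM equalled reads over file total within 0.0005. The aligner, build, trimming and filters are not stated there or in the labels. The closing total of each file was left out. File totals are those of this size window, not of whole libraries.

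Sequences with at least 10 reads in 35k or in all 3 milk libraries were tested on the deposited read counts in R 4.3.3 by the quasi-likelihood method of edgeR 4.0.16, with library sizes from the file totals, no TMM, and Benjamini-Hochberg adjustment at 0.05. Only milk has replicates, so the 35k library was taken to have the spread seen in milk. Families were built from the sequences alone: in order of mean RPM over both arms, a sequence of at least 12 nt with no run of 11 bases in common with an earlier one became a seed, up to 30, and other sequences joined the earliest seed with which they share such a run. In a test on simulated data for this comparison, with 3875 sequences, all 43 sequences raised 32-fold and 11 of 12 raised 8-fold were called. So were all 7 lowered 32-fold, 5 of 7 lowered 8-fold and 2 of 3806 unchanged ones. The simulated counts were drawn independently around the milk means, with the same dispersion for all sequences. They lacked the sharing of rare sequences among milk libraries, and in the real data 17614 sequences passed the minimum. The simulation therefore checks the code and does not give the error rate of the test on the real data.

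Named are the 10 sequences with most reads in 35k and in milk, up to 12 with at least 100 RPM and the highest or lowest ratio, all 30 families, and up to 8 called sequences per direction by reads. The 3 sequences of the second 28S fragment are length forms of named ones. Members and lists were chosen with earlier results of these data known. Alternatives were TMM, limma 3.58.1 (values as log2(RPM + 1)), DESeq2 1.42.0, run lengths and read minimums other than these, all 7 libraries, thinning, and leaving out each milk library. Groups by the last 8 bases and the minimum of 100 reads were added after the data were seen. A count of 0 allows up to 3 reads, 1.17 RPM in 35k and 0.656 to 1.81 RPM in milk. Intervals and this limit cover counting error only, since reads carry no molecular identifiers. MicroRNAs, and with them any marker of the cells of origin, were not analysed here.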

Additional observations from a re-analysis of the deposited data

How the results depend on the processing

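The count of called sequences depended on the test, the read minimum and which milk libraries were used. Against 12359 with edgeR and the file totals, it was 355 with DESeq2, 216 with a minimum of 1 read, 505 with 50 reads, 412 with 40 reads summed over the 4 libraries, 7872 after thinning, 213 with 100 reads and 208 with DESeq2 and 100 reads, and 137 to 13846 when 1 milk library was left out. At an unadjusted p under 0.05, edgeR gave 12672 sequences and DESeq2 1409. DESeq2 left the adjusted p of most sequences empty and adjusted 5662. With TMM scaling the median log2 fold change of the sequences was 5.83, against 6.81, and that of the 30 families -0.01, against -0.19, so small family changes are relative to that shift. Sequences at least 2 times above milk numbered 1041 with 50 reads and 371 with 100 reads, and those at or below 1/2 of milk 62 and 18. At the minimum of 10 reads, leaving out 1 milk library gave 762 to 2179 at or below 1/2 of milk, against 506, and 13680 to 13975 at least 2 times above it. Families called numbered 6 to 9 in all alternatives. The sign of uncalled families turned with TMM for 28S (0.0921), 1 5.8S 1-base family (0.000828), the lysine tRNA 5' family (0.0610) and unassigned family I (0.0294). When 1 milk library was left out, the log2 fold change ranged over 0 for 28S (-0.145 to 0.0635), the same 5.8S 1-base family (-0.216 to 0.0589), the lysine tRNA 5' family (-0.296 to 0.180), histidine tRNA (-0.216 to 0.469) and family I (-0.346 to 0.0444). It did so for the single 13-nt 5.8S form (-0.164 to 0.173), the 14-nt (-0.143 to 0.0548) and 15-nt (-0.173 to 0.115) 28S forms and the 5.8S 1-base forms of 13 nt (-2.33 to 0.245 and -1.77 to 0.264), each positive without milk 1. Among the named sequences 98 values lost their call under an alternative and 27 gained one, and among the families 10 lost it. All calls gained were toward lower values in 35k. With TMM scaling they included the 14-nt 28S (log2 fold change -1.27), 14-nt 18S (-1.42) and 12-nt lysine tRNA (-1.45) forms. In percentage points of 35k minus the milk mean, the 10-nt share was 3.21, -0.608 over distinct sequences and 5.77 without the 10 most abundant milk sequences. The 12-nt share was -8.97 and -0.259 over distinct sequences. The share starting with A was 3.05, 3.75 over distinct sequences and 4.31 without those 10 sequences, and the share of G and C 1.08 and 2.68 without them. The top-10 share was -10.3 and 1.13 without them, the top-100 share -8.64 and -2.02. Beyond the number of sequences or libraries used, the cause was not tested. The microRNA family comparison was not run, for want of a sequence table. No paired analysis was possible because the 35k fraction has 1 library and the fraction titles carry no replicate number. With 1 library, no spread of the fraction itself was measured.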
